A study of Mus musculus with 28 samples.

Results

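The effect of immune checkpoint blockade (ICB) on tumor RNA was estimated over all 28 tumors of the series, 15 from mice given ICB and 13 from mice that were not, with chemotherapy as an additive covariate of 3 levels (none, 5-FU or cisplatin). Every sample of the series entered the comparison, and 18521 of 55341 gene names had enough counts to be tested. A gene was called higher or lower when its log2 fold change exceeded 0.5 in size and its p-value in edgeR's quasi-likelihood test, adjusted by the Benjamini-Hochberg method, was under 0.05. The same contrast was then read on each chemotherapy background by itself, and genes with the same direction on all 3 backgrounds were counted. The question was what ICB changed in these tumors whichever chemotherapy it was given with.

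The mice were BALB/c.AusBP animals that carried AB1-HA tumors under the skin of the right flank. AB1-HA is a mouse mesothelioma line that expresses influenza hemagglutinin, so all tumors derive from 1 cell line that was grown outside the pleura. Tumors without ICB came from mice given PBS (n = 4), 5-FU at 75 mg/kg (n = 5) or cisplatin at 6 mg/kg (n = 4), and tumors with ICB from mice given ICB alone (n = 5), 5-FU+ICB (n = 5) or Cisplatin+ICB (n = 5), at the same chemotherapy doses. ICB was 1 dose of anti-CTLA-4 and 3 doses of anti-PD-L1, 100 µg per dose, and whole tumors were taken on day 7 of treatment. RNA was extracted from the whole tumor with no cell sorting, so fewer cells of a type and less RNA per cell cannot be told apart in any value given here.

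CTLA-4 and PD-1 are receptors that restrain T cells, CTLA-4 by competing with CD28 for CD80 and CD86 on antigen-presenting cells and PD-1 by binding PD-L1 (encoded by Cd274) or PD-L2 (Pdcd1lg2) on tumor and myeloid cells. Antibodies to CTLA-4 and PD-L1 lift these brakes. T cells that recognise tumor antigen kill with granzymes and perforin and secrete interferon gamma, which acts through JAK kinases on nearby cells and induces IRF1, antigen presentation genes, T cell-attracting chemokines and PD-L1 itself.

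Total counts per tumor ranged from 23541733 to 33950805, with medians of 29482522 with ICB and 28738601 without. Levels are given as CPM, the counts scaled to the TMM-adjusted library size, and 3 counts corresponded to between 0.0822 and 0.159 CPM, a limit that covers counting error only. No sequencing batch was given by the labels. A pair of libraries stood apart. 5-FU+ICB tumor 5 had a mitochondrial share of 16.1% of its counts against 1.03% to 6.80% in the others. Its summed skeletal muscle markers stood at 7036 CPM and its lymph node markers at 2367 CPM, the highest of the series. Cisplatin+ICB tumor 1 had the lowest scaling factor (0.685), the lowest mitochondrial share (1.03%) and the highest summed erythroid markers (755 CPM). ICB tumor 2 had summed skin keratinocyte markers of 446 CPM, against 1.10 to 24.8 CPM in the others.

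The leukocyte gene Ptprc, which encodes CD45, is the gene against which the immune results were read. Its level ranged from 105 to 723 CPM with ICB (median 342) and from 75.0 to 331 CPM without (median 105). Most tumors with ICB had more of it, but the arms overlapped, and 8 of the 15 tumors with ICB exceeded the highest tumor without. Ptprc rose by a log2 fold change of 1.35 ± 0.25 (SE; adjusted p = 0.000345, edgeR's quasi-likelihood test). 5-FU+ICB tumor 2 (105 CPM), Cisplatin+ICB tumor 1 (118 CPM) and Cisplatin+ICB tumor 3 (138 CPM) had the lowest levels among the tumors with ICB.

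Adjusted for chemotherapy, ICB changed 4282 genes, or 23.1% of those tested. Of these, 3080 (16.6%) rose and 1202 (6.49%) fell. The increases were the larger changes. A log2 fold change above 1 was reached by 1933 of the genes that rose and by 208 of those that fell, and one above 2 by 375 and 36. With no scaling between tumors beyond library size, 4626 genes were called, 2711 higher and 1915 lower, so the share of higher calls was 58.6% instead of 71.9%. The median log2 fold change of all genes tested was -0.02 with TMM scaling. The count of lower calls rested more on single libraries than that of higher calls. It was 2531 without Cisplatin+ICB tumor 1 and 1913 without 5-FU+ICB tumor 2, beside 3559 and 3509 higher calls, and limma-voom called 3854 genes higher and 3323 lower. Without both libraries that stood apart, 5768 genes were called, 3504 higher and 2264 lower, and 3874 of the 4282 were among them. The number of members called then moved in 16 of the 32 gene lists described below, by at most 3 in a direction. Where this was a change of over 1.5 times, both counts are given with the list.

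The cytotoxic effector list had the highest median log2 fold change of the 32 lists, and its gene Gzmb had the smallest p-value. All 13 cytotoxic effector genes listed were called higher, with a median log2 fold change of 2.31, and so were all 15 genes of the T cell receptor complex and its coreceptors, with a median of 2.24. For all genes tested, 16.6% were called higher. Gzmb encodes granzyme B, the protease that T and NK cells inject into target cells (GRCm38 chr14:56258838-56262260, minus strand). It ranged from 27.8 to 163 CPM with ICB (median 87.0) and from 9.69 to 39.9 CPM without (median 20.9). Only 1 of the 15 tumors with ICB lay within the range of the 13 tumors without. The log2 fold change of Gzmb was 2.05 ± 0.23 (adjusted p = 1.72e-05), and it was 2.73 without chemotherapy, 1.60 with 5-FU and 1.90 with cisplatin.

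Ifng, the gene of interferon gamma, ranged from 0.848 to 16.4 CPM with ICB (median 12.2) and from 0.203 to 5.21 CPM without (median 0.622). In 12 of 15 tumors with ICB it was above every tumor without. The log2 fold change was 3.52 ± 0.49 (adjusted p = 4.15e-05), with 5.23 without chemotherapy, 2.04 with 5-FU and 3.78 with cisplatin. Prf1, which encodes the pore-forming perforin, rose by 2.31 ± 0.33 on the log2 scale, from a median of 15.8 CPM to 96.0 CPM. The granzymes Gzmg and Gzmf, made by activated cytotoxic lymphocytes, had larger fold changes (3.95 and 3.76) but wider spreads. Gzmf ranged from 0.400 to 322 CPM among tumors with ICB, where 5-FU+ICB tumor 5 had the lowest level, and 8 of 15 exceeded the highest tumor without.

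Cd8a, the CD8 coreceptor of cytotoxic T cells, ranged from 2.81 to 304 CPM with ICB (median 88.5) and from 2.18 to 76.6 CPM without (median 5.88). The arms overlapped, with 10 of 15 tumors with ICB above the highest tumor without. Cd8a rose by 3.37 ± 0.53 (adjusted p = 0.0001), close to that of Cd8b1 (3.24 ± 0.53). Zap70, the kinase that carries the T cell receptor signal, rose by 2.03 ± 0.34. The variable segments of the T cell receptor genes, a family chosen after its values were seen, moved alike. Of 26 segments tested, 22 were called higher, and their summed level had a median of 23.5 CPM with ICB and 3.78 CPM without.

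**Figure D1:**
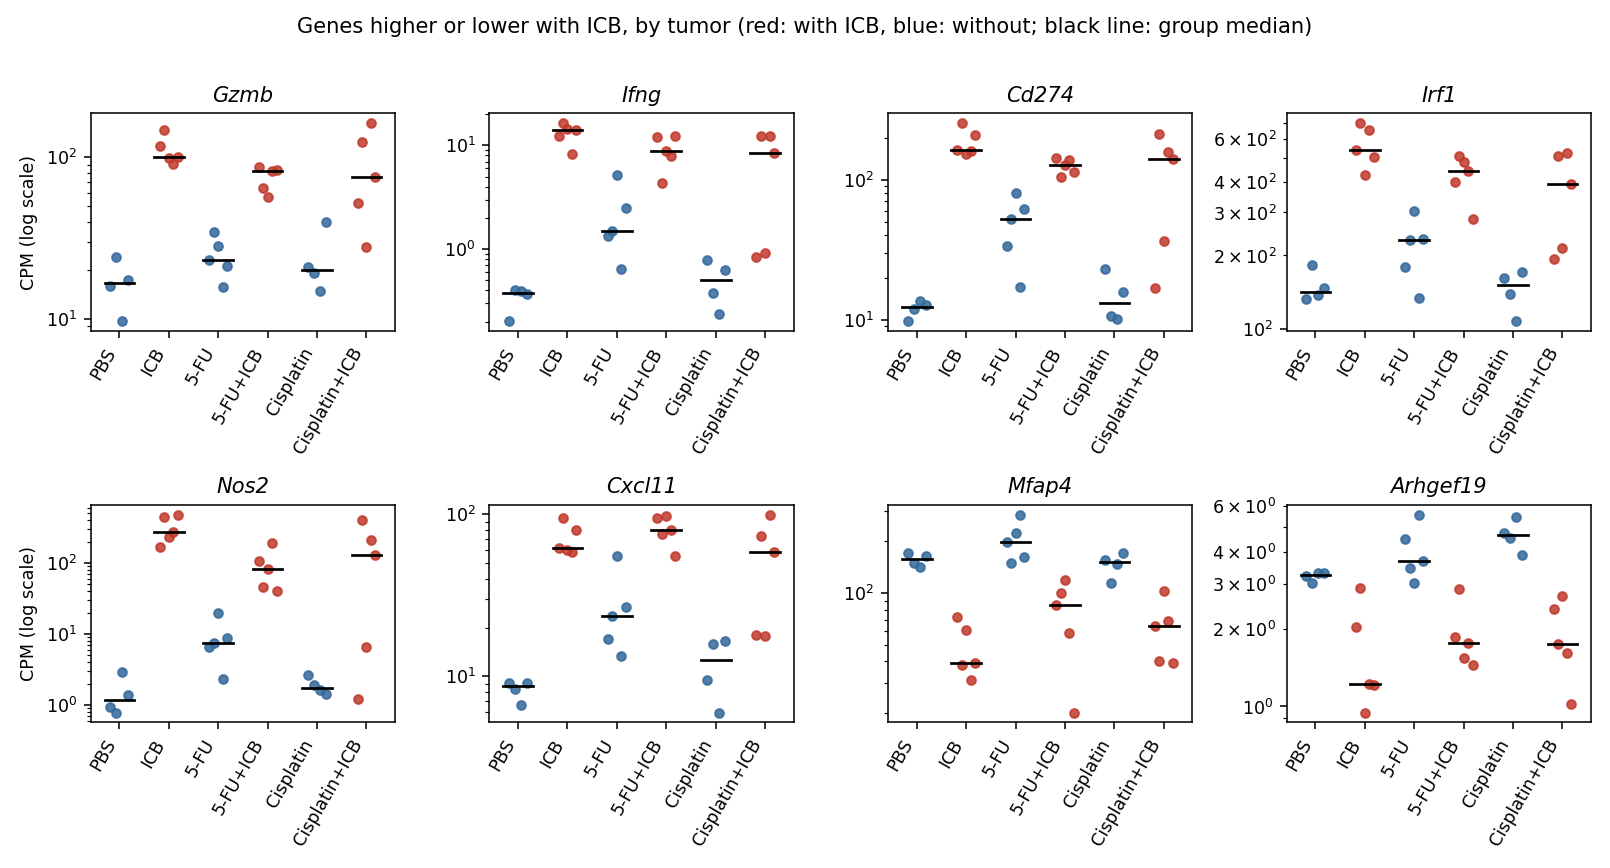
Levels of 8 genes in each of the 28 tumors, as CPM on a log scale, by treatment group. Points are tumors and the black line is the group median. Gzmb, Ifng, Cd274, Irf1, Nos2 and Cxcl11 are higher and Mfap4 and Arhgef19 lower with ICB on every background. The tumors with ICB that fall back to the level of the others are few, and Arhgef19 separates all 15 from all 13.

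Among the regulatory T cell markers, 7 of 8 were called higher, with a median log2 fold change of 1.25. Ikzf4, which encodes the transcription factor Eos, rose by 1.59 ± 0.32, Il2ra, the interleukin-2 receptor alpha chain, by 1.37 ± 0.28 and the costimulatory receptor Icos by 1.67 ± 0.36. The exception was Foxp3, the defining transcription factor of these cells. It ranged from 0.424 to 28.1 CPM with ICB (median 10.4) and from 1.46 to 24.4 CPM without (median 5.12), so the arms overlapped almost wholly, and its log2 fold change of 0.82 ± 0.32 had an adjusted p of 0.0551 in edgeR's quasi-likelihood test. DESeq2 and limma-voom called all 8 markers higher, Foxp3 included, and in edgeR Foxp3 was called without both libraries that stood apart (0.95) and when any of 5 tumors was left out (5-FU tumor 3, 5-FU tumor 5, 5-FU+ICB tumor 2, Cisplatin tumor 1 or Cisplatin+ICB tumor 1). Of the NK cell markers, 4 of 7 were called higher (5 with DESeq2, 7 with limma-voom). Klrd1, the CD94 subunit of NK receptors, rose by 1.94 ± 0.31, and Klrk1, the NKG2D receptor that T cells also carry, by 1.69 ± 0.29.

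The targets of the antibodies and their partners did not move alike. Of 17 checkpoint receptors and ligands, 11 were called higher. Cd274, which encodes the PD-L1 that one of the antibodies binds (chr19:29367455-29388095, plus strand), ranged from 16.8 to 253 CPM with ICB (median 143) and from 9.81 to 79.9 CPM without (median 15.8). It was above every tumor without ICB in 13 of 15 tumors with ICB. The log2 fold change was 2.67 ± 0.37 (adjusted p = 4.15e-05), with 3.96 without chemotherapy, 1.36 with 5-FU and 2.92 with cisplatin. Pdcd1lg2, the gene of the other PD-1 ligand, rose by 3.45 ± 0.56, and Pdcd1, the gene of PD-1, rose by 3.03 ± 0.51.

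Ctla4 itself ranged from 2.57 to 28.4 CPM with ICB (median 10.3) and from 2.33 to 17.9 CPM without (median 5.94). Only 2 of the 15 tumors with ICB were above the highest tumor without. Its log2 fold change of 0.75 ± 0.30 had an adjusted p of 0.0542 in edgeR's quasi-likelihood test. DESeq2 (0.80) and limma-voom (0.96) called it higher. In edgeR it was called with DESeq2's size factors, with equal weights of the backgrounds, without the 5-FU tumors, with a filter of at least 10 counts in every tumor and when any of 7 tumors was left out (PBS tumor 2, 5-FU tumor 3, 5-FU tumor 5, 5-FU+ICB tumor 2, 5-FU+ICB tumor 3, Cisplatin tumor 4 or Cisplatin+ICB tumor 3). Of the genes around it, Cd28 rose by 2.51 ± 0.49 and Cd86 by 1.73 ± 0.29, whereas Cd80 had a log2 fold change of 0.10 ± 0.12 (adjusted p = 0.548) with medians of 26.8 and 23.6 CPM. Cd80 and Cd86 encode the shared ligands of CTLA-4 and CD28, and only Cd86 passed the test. The difference between these changes was not tested.

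Of 12 interferon gamma signaling genes, 10 were called higher in the main effect, and all 12 had a positive fold change on each of the 3 backgrounds. The exceptions were the receptor chain Ifngr2 and the kinase Jak1. Irf1, a transcription factor that interferon gamma induces, ranged from 194 to 696 CPM with ICB (median 485) and from 108 to 304 CPM without (median 162). In 12 of 15 tumors with ICB it was above every tumor without. Irf1 rose by 1.39 ± 0.17 on the log2 scale (adjusted p = 3.19e-05). Socs1, the feedback inhibitor of JAK kinases, rose by 1.44 ± 0.20.

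The interferon-inducible GTPases, which attack the vacuoles of intracellular pathogens, were called higher in 16 of 16 cases, with a median log2 fold change of 1.75. Tgtp1 ranged from 22.3 to 261 CPM with ICB (median 178) and from 11.9 to 108 CPM without (median 21.9). It was above every tumor without ICB in 13 of 15, and its log2 fold change was 2.45 ± 0.30 (adjusted p = 3.19e-05). Tgtp1 has a near-identical neighbor, Tgtp2, and the split of reads between them is uncertain. Gbp6 rose by 1.95 ± 0.27 and Ifi47 by 1.09 ± 0.15. Of 21 genes stimulated by type I interferon, 7 were called higher, with a median log2 fold change of 0.46 (15 had an unadjusted p under 0.05), led by the nucleic acid sensor Zbp1 (1.08 ± 0.15) and the RNA sensor Ifih1 (0.69 ± 0.14). DESeq2 called 11 of the 21 higher, limma-voom 7, and edgeR 9 without both libraries that stood apart.

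The promoters of 4 genes called in the main effect show the sequence element that interferon gamma signaling uses, its counterpart for the interferon-stimulated response and a window with neither. Each window runs from 250 bases before to 50 bases after a RefSeq transcript start (GRCm38.p6), written 5′ to 3′ on the gene's strand, and positions are counted from that start. Capitals mark matches to the interferon gamma activated site (GAS) TTCNNNGAA and to the core of the interferon-stimulated response element (ISRE), GAAANNGAA, both searched on both strands. Irf1 (chr11:53769764-53770063, plus strand) has a GAS at -90 (a second Irf1 window, chr11:53770223-53770522, has neither motif), Tgtp1 (chr11:48992197-48992496, minus strand) has a GAS at -88 and an ISRE at -77, Cd274 (chr19:29367188-29367487, plus strand) has an ISRE on the opposite strand at -76, and Mxra8 (chr4:155839430-155839729, plus strand), a gene that fell, has neither.
Irf1: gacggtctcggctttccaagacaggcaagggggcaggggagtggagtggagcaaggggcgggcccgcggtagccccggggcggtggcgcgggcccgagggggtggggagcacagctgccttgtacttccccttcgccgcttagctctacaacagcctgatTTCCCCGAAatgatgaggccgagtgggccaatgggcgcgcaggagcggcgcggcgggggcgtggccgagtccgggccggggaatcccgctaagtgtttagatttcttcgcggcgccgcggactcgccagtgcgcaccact
Tgtp1: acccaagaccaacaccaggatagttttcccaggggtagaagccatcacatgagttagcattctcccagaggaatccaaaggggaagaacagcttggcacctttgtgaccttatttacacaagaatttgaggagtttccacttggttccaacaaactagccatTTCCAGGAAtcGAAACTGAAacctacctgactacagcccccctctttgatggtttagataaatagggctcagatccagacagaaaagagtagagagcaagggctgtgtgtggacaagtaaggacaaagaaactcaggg
Cd274: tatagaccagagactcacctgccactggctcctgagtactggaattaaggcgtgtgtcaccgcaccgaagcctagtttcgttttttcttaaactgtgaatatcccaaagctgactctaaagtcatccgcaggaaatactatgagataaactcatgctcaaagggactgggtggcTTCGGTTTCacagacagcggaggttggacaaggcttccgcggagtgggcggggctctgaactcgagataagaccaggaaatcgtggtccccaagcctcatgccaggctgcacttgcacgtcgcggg
Mxra8: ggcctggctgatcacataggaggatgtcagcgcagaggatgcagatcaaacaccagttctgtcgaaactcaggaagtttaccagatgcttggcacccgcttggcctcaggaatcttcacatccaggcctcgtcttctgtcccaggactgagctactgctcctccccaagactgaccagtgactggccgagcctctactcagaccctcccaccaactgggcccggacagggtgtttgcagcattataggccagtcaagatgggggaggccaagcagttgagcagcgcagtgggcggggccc
Promoter windows were found for 2120 of the genes called higher, 853 of those called lower and 12496 of all genes tested. A match to either motif was held by 21.3% of the genes called higher, 15.2% of those called lower and 16.6% of the genes tested. For the ISRE core the shares were 13.2%, 8.21% and 9.17%, and for the GAS 10.4%, 8.56% and 8.60%. Over all 32851 windows of the reference, 8.30% held a GAS and 8.56% an ISRE core. These are shares of letters in a short window and are no measure of binding.

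Antigen presentation rose in both of its arms. All 13 genes of MHC class I processing were called higher, with a median log2 fold change of 0.86, and all 10 of MHC class II presentation, with a median of 1.79. Tap1, the transporter that loads peptides for class I, ranged from 172 to 622 CPM with ICB (median 495) and from 128 to 464 CPM without (median 181). The arms overlapped, and 10 of 15 tumors with ICB were above the highest tumor without. Tap1 rose by 1.19 ± 0.17 and the immunoproteasome subunit Psmb8 by 0.88 ± 0.14. H2-DMa and H2-DMb1, which exchange peptides on class II, rose by 1.54 ± 0.33 and 1.64 ± 0.38, with 4 of 15 tumors with ICB above the highest tumor without for each.

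T cell-attracting chemokines followed the same pattern. Of 11 ligands and receptors, 10 were called higher, with a median log2 fold change of 2.09, and only Xcl1 was not. Cxcl11, a ligand of CXCR3 that the reference annotates as a polymorphic pseudogene, ranged from 17.6 to 99.4 CPM with ICB (median 73.4) and from 5.97 to 55.0 CPM without (median 13.3). It was above every tumor without ICB in 13 of 15 and did not overlap between the arms on any single background. Cxcl11 rose by 2.24 ± 0.28 (adjusted p = 3.19e-05), beside 1.83 ± 0.27 for Cxcl10 and 3.04 ± 0.48 for Ccl5, a chemokine that T cells themselves secrete.

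Nos2 and Acod1, enzymes of activated macrophages, had the largest increases among the genes with a mean of at least 1 CPM and the same sign on all backgrounds, leaving out immunoglobulin and T cell receptor segments, predicted genes and pseudogenes. Nos2 encodes inducible nitric oxide synthase, which makes nitric oxide from arginine (chr11:78920787-78960254, plus strand). It ranged from 1.22 to 479 CPM with ICB (median 166) and from 0.780 to 19.7 CPM without (median 2.29). In 13 of 15 tumors with ICB it was above every tumor without, and Cisplatin+ICB tumor 1 (1.22 CPM) and tumor 3 (6.54 CPM) were the others. On the log2 scale Nos2 rose by 5.69 ± 0.77 (adjusted p = 4.15e-05), with 7.73 without chemotherapy, 3.40 with 5-FU and 6.33 with cisplatin.

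Acod1, which makes the immunometabolite itaconate, ranged from 7.85 to 326 CPM with ICB (median 101) and from 1.74 to 24.8 CPM without (median 4.66). It was likewise above every tumor without ICB in 13 of 15, and on each background the arms did not overlap. Acod1 rose by 4.20 ± 0.56. Ido1, which degrades tryptophan, rose by 2.92 ± 0.40 from a low level, with medians of 0.415 CPM without ICB and 3.80 CPM with it. In all, 7 of 10 enzymes of immune amino acid and itaconate metabolism were called higher. The exceptions were Tdo2, Kmo and Gch1, the first of which acts mainly in liver.

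Inflammatory cytokines and their feedback genes rose in 11 of 15 cases, with a median log2 fold change of 1.09. The medians of the background effects were 2.01 without chemotherapy, 0.27 with 5-FU and 1.15 with cisplatin. Il1a rose by 3.10 ± 0.57 and Tnf by 1.92 ± 0.40. For Tnf the effect was 3.35 without chemotherapy and 0.42 with 5-FU. The growth factor gene Csf2 rose by 2.16 ± 0.35 with closer background values (2.52, 1.61 and 2.47).

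All 14 macrophage markers were called higher, with a median log2 fold change of 0.97 beside 1.35 for Ptprc. The difference was not tested. Their medians on the backgrounds were 1.78 without chemotherapy, 0.48 with 5-FU and 0.84 with cisplatin. Cd68, a lysosomal protein of macrophages, ranged from 124 to 744 CPM with ICB (median 344) and from 120 to 264 CPM without (median 168). In 11 of 15 tumors with ICB it was above every tumor without, and its log2 fold change was 0.90 ± 0.18. Mertk, a receptor for dead cells, rose by 1.31 ± 0.26 and the complement gene C1qc by 1.24 ± 0.31. Cd68, Mertk and C1qc were not called without the tumors given no chemotherapy. Marco, a scavenger receptor gene of macrophages chosen after its values were seen, was at or under 3 counts in 10 of 13 tumors without ICB and in 4 of 15 with it. It reached 6.55 CPM with ICB against 0.267 CPM without, and was called higher (adjusted p = 4.15e-05).

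Of the monocyte markers, 3 of 4 were called higher, led by Chil3 (3.30 ± 0.53) and Ly6c2 (1.83 ± 0.35). The call of the third, Plac8 (0.58 ± 0.21), held in 18 of 28 fits with a tumor left out, was not made by limma-voom and stood at 0.37 without Cisplatin+ICB tumor 1. Of 7 neutrophil markers tested, 5 were called higher, among them the collagenase gene Mmp8 (2.28 ± 0.47) and the alarmin gene S100a8 (1.54 ± 0.36). Of 10 dendritic cell markers, 5 were called higher, with a list median of 0.62 and a lowest value of -0.39. With limma-voom 5 were called higher and 1 lower. The 5 called by edgeR included Clec9a and Batf3 of the cross-presenting lineage (1.92 ± 0.33 and 1.63 ± 0.37) and Ccr7, the receptor of migrating dendritic and naive T cells (1.48 ± 0.36).

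None of 7 B cell markers was called by edgeR's quasi-likelihood test (2 at an unadjusted p under 0.05), although their median log2 fold change was 1.46. DESeq2 called 1 higher, and limma-voom 3 higher and 1 lower. Without both libraries that stood apart the median was 0.05 and 1 marker was called lower. Cd79b ranged from 0.792 to 181 CPM with ICB (median 3.48) and from 0.495 to 29.7 CPM without (median 1.86), and the highest value was that of 5-FU+ICB tumor 5. Its log2 fold change was 1.46 ± 0.60 (adjusted p = 0.0620) and 0.60 without that tumor. Cd79b was called higher when any of 6 other tumors was left out (ICB tumor 4, 5-FU tumor 3, 5-FU+ICB tumor 2, Cisplatin tumor 4, Cisplatin+ICB tumor 1 or Cisplatin+ICB tumor 3), at 1.54 to 1.85. Immunoglobulin genes were chosen after their values were seen. Of 30 variable segments tested, 17 were called higher, and 6 of the 19 tested without 5-FU+ICB tumor 5. Their call count was also over 1.5 times lower without Cisplatin+ICB tumor 5 (10 of 24 tested). Of 11 constant segments, 5 were called higher, and 2 without 5-FU+ICB tumor 5. The summed constant segments of that tumor stood at 4607 CPM, against a median of 151 CPM with ICB and 42.8 CPM without.

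The heavy chain gene Ighg1 was called higher with any tumor left out. It ranged from 0.501 to 1164 CPM with ICB (median 7.82) and from 0 to 17.3 CPM without (median 0.365). Of the tumors with ICB, 7 of 15 were above the highest tumor without. Its log2 fold change was 5.05 ± 1.10 (adjusted p = 0.00137), with 4.76 without chemotherapy, 5.25 with 5-FU and 5.08 with cisplatin, and 3.94 was the lowest value with a tumor left out.

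Genes of lymph nodes and high endothelial venules, the vessels through which lymphocytes leave the blood, were called higher in 6 of 8 cases. Their summed level ranged from 31.6 to 2367 CPM with ICB (median 233) and from 13.1 to 914 CPM without (median 72.5). The sizes moved with 5-FU+ICB tumor 5. Glycam1, a ligand of lymphocyte homing receptors, stood at 491 CPM in that tumor and at a median of 0.276 CPM with ICB, and its log2 fold change of 3.96 became 0.46 without it. The Glycam1 call was lost then and also without 5-FU tumor 1, 2, 4 or 5 (3.44 to 3.56), and DESeq2 did not make it. The chemokine gene Ccl21a went from 2.94 to 1.74 without 5-FU+ICB tumor 5 and was no longer called. Chst4, a sulfotransferase gene, went from 2.83 to 1.65 and was called with any tumor left out. Ltb, the lymphotoxin beta gene that lymphocytes express widely, rose by 1.81 ± 0.37. Endothelial markers were called higher in 5 of 10 cases, with Pecam1 at 0.90 ± 0.23. Emcn (0.62) and Robo4 (0.79) were not called without 5-FU+ICB tumor 5, at 0.49 and 0.60. Whether lymph node tissue in the sample had a part in these values was not tested.

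**Figure D2:**
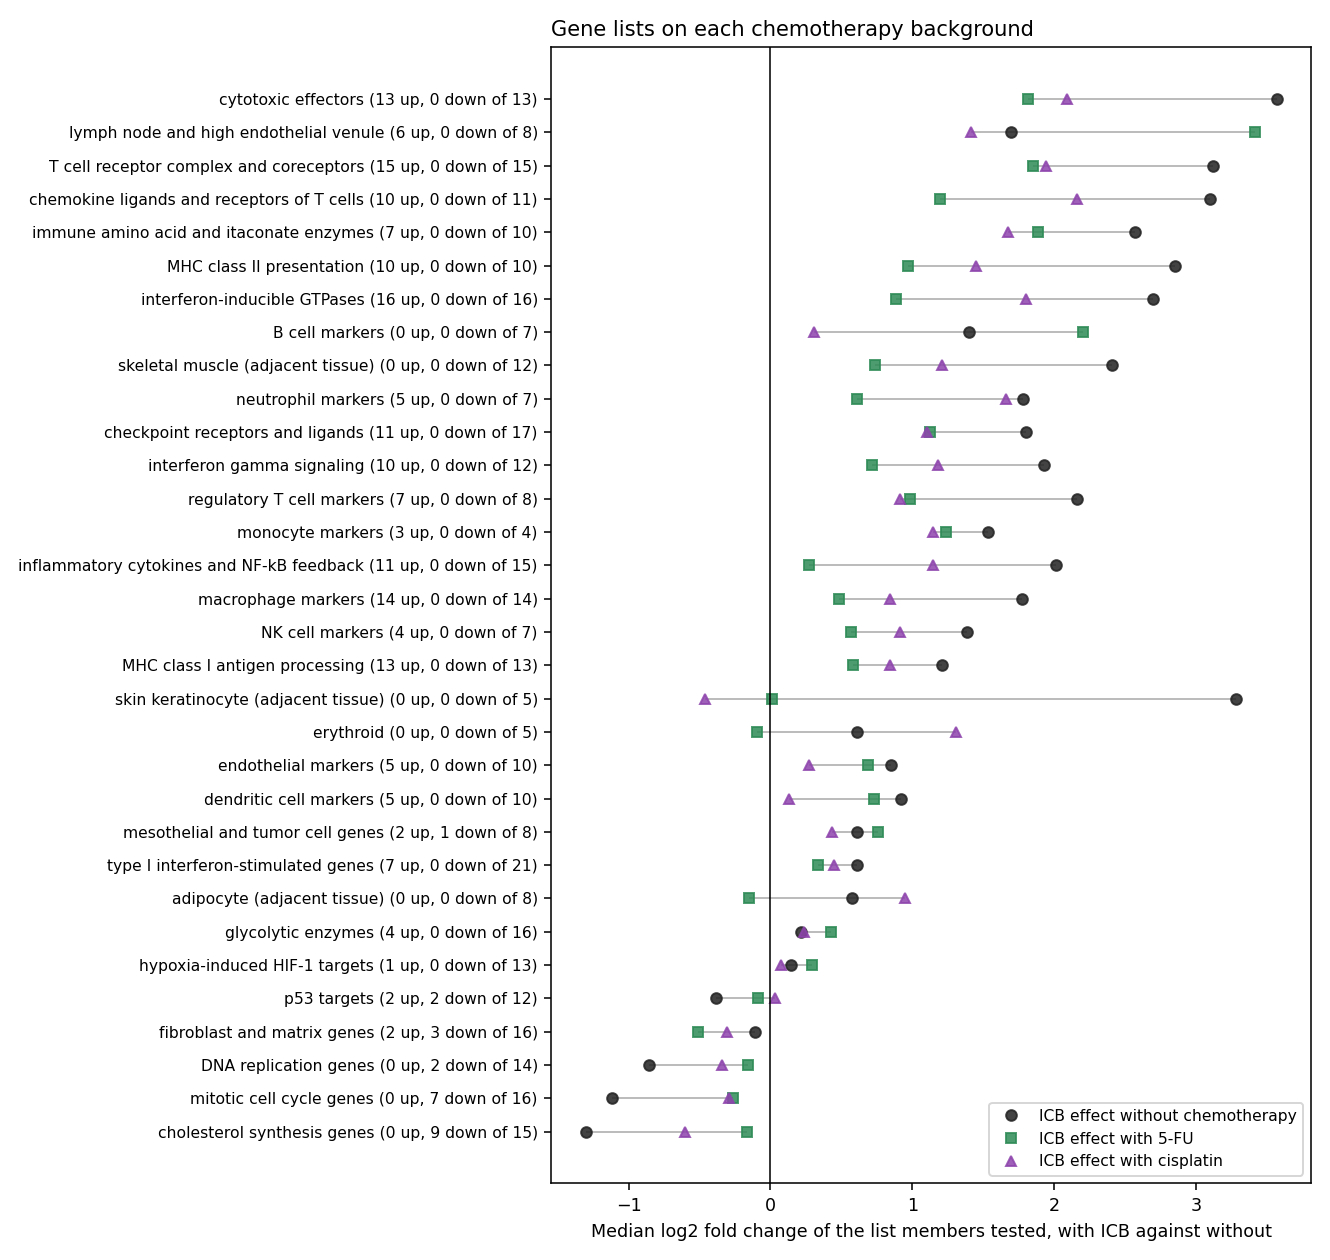
Median log2 fold change of each gene list with ICB on each chemotherapy background (symbols), with the number of members called higher and lower in the main effect out of those tested. T cell, interferon and chemokine lists lie to the right and mitotic and cholesterol synthesis lists to the left. The effect without chemotherapy is the most distant from 0 for most lists, and the lymph node list is an exception.

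Among the genes that fell with a mean of at least 1 CPM, Hsd11b2, the enzyme that inactivates glucocorticoids, had the largest decrease. It ranged from 0 to 0.309 CPM with ICB (median 0.170) and from 0.102 to 18.9 CPM without (median 2.45). Of the tumors with ICB, 4 of 15 were at or under 3 counts, as were 2 of 13 without, and the arms overlapped at the low end. The fitted log2 fold change was -3.70 ± 0.62 (adjusted p = 0.000155). Kera, which encodes the proteoglycan keratocan, fell by 2.38 on the log2 scale, with a median of 4.38 CPM without ICB and 0.867 CPM with it. Col10a1, a collagen of hypertrophic cartilage, fell by 2.11 on the same scale.

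Mfap4, an extracellular protein that binds elastic fibers (chr11:61485431-61488900, plus strand), ranged from 20.1 to 119 CPM with ICB (median 60.5) and from 114 to 286 CPM without (median 162). In 14 of 15 tumors with ICB it was below every tumor without. The log2 fold change was -1.45 ± 0.20 (adjusted p = 4.15e-05) and differed little between backgrounds (-1.71, -1.42 and -1.23). Osr2, a transcription factor of connective tissue development, fell by 1.43 and was below every tumor without ICB in 13 of 15. C1qtnf3, a secreted protein gene, and Capn6, a calpain family member, were below all of those in 14 and 13 of 15, with log2 fold changes of -1.52 ± 0.24 and -1.40 ± 0.21. Crabp1, a retinoic acid binding protein, and Lhx9, a developmental transcription factor, fell by 1.58 and 1.49.

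Of 16 fibroblast and matrix genes, 3 were called lower and 2 higher, with a median log2 fold change of -0.34. For all genes tested, 6.49% were called lower and 16.6% higher. On all 3 backgrounds 10 of the 16 were lower and 3 higher, while 57.1% of all genes tested had the same direction on all 3. Without both libraries that stood apart 1 was called lower, and limma-voom called 8 lower and 3 higher. Sparc, a matrix glycoprotein, fell by 0.63, and the matrix gene Thbs2 by 0.64. The collagen gene Col3a1 fell by 0.61, a call lost without PBS tumor 3, PBS tumor 4, 5-FU tumor 4 or Cisplatin tumor 3. Acta2, the smooth muscle actin of myofibroblasts and vessel walls, rose by 1.29 ± 0.29 and the collagen-crosslinking enzyme gene Lox by 0.72 ± 0.19.

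Hair keratins and keratin-associated proteins, which build the hair shaft and were chosen after their values were seen, made up much of the largest decreases among scarcely expressed genes. Of 23 tested, 20 were called lower, with a median log2 fold change of -3.08, and all 23 had a mean under 1 CPM. Their summed level ranged from 0.371 to 9.75 CPM with ICB (median 0.867) and from 0.237 to 50.6 CPM without (median 1.22). The medians were close and the arms overlapped over most of their range, with 5 of 13 tumors without ICB above the highest tumor with it. The count of calls was 6 of 14 tested without 5-FU tumor 4, 12 of 23 without Cisplatin tumor 1 and 14 of 23 without PBS tumor 2. Of 5 keratinocyte markers of the skin tested, none was called by edgeR, DESeq2 or limma-voom or had an unadjusted p under 0.05, and their sum had a median of 4.18 CPM with ICB and 5.16 CPM without. The highest sum was that of ICB tumor 2 (446 CPM).

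Of 16 mitotic genes, 7 were called lower and none higher, against 6.49% called lower among all genes tested, with a median log2 fold change of -0.53. Ccna2, the cyclin of S phase and G2, ranged from 76.6 to 340 CPM with ICB (median 182) and from 164 to 375 CPM without (median 312). The arms overlapped, with 5 of 15 tumors with ICB below the lowest tumor without. Ccna2 fell by 0.66 (SE 0.17, adjusted p = 0.00496), the checkpoint kinase gene Bub1 by 0.64 and the mitotic kinase gene Aurkb by 0.58. Of 14 DNA replication genes, 2 were called lower, the ribonucleotide reductase subunits Rrm1 (-0.53) and Rrm2 (-0.51). The Rrm1 call was lost without PBS tumor 1, ICB tumor 2, ICB tumor 3 or Cisplatin tumor 4, and the Rrm2 call held in 16 of 28 fits with a tumor left out. The list's median was -0.39. DESeq2 called none of the replication genes and limma-voom 11 lower, and of the mitotic genes they called 5 and 15 lower. Over all genes limma-voom made 7177 calls, against 4282. Without both libraries that stood apart, 10 mitotic and 5 replication genes were called lower.

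Cholesterol synthesis genes fell in 9 of 15 cases (8 with DESeq2, 14 with limma-voom), with a median log2 fold change of -0.71. The medians on the backgrounds were -1.30 without chemotherapy, -0.16 with 5-FU and -0.60 with cisplatin. Sqle, a rate-limiting enzyme of the sterol branch, ranged from 22.6 to 98.3 CPM with ICB (median 39.7) and from 25.5 to 172 CPM without (median 98.3). The arms overlapped widely, and 2 of 15 tumors with ICB were below the lowest tumor without. Sqle fell by 1.01 (SE 0.20, adjusted p = 0.000491), Hmgcs1, which makes the precursor HMG-CoA, by 0.85 and Lss, the lanosterol synthase, by 0.81.

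Of 16 glycolytic genes, 4 were called higher, against 16.6% of all genes tested, and the median was 0.27. The 4 were the lactate transporter Slc16a3, the glucose transporter Slc2a1, the phosphofructokinase Pfkp and the hexokinase Hk2. Slc16a3 ranged from 16.5 to 155 CPM with ICB (median 70.2) and from 11.4 to 28.6 CPM without (median 18.9). In 14 of 15 tumors with ICB it was above every tumor without, and its log2 fold change was 1.83 ± 0.23 (adjusted p = 3.37e-05). Pfkp rose by 0.95 ± 0.15 and was likewise above in 14 of 15, and Slc2a1 rose by 0.89 ± 0.13. Of 13 hypoxia-induced targets of HIF-1, only Ndrg1 was called higher (0.79 ± 0.13), and 2 were without both libraries that stood apart. These counts were no higher than the share of 16.6% over all genes tested.

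Of 12 p53 targets, 2 were called in each direction, and 1 higher and 3 lower without both libraries that stood apart. For all genes tested, 16.6% were called higher and 6.49% lower, so the higher count was near that share. The pro-apoptotic gene Pmaip1 rose by 1.47 ± 0.28 and Trp53inp1 by 0.52, and Eda2r fell by 0.68 and Phlda3 by 0.55. The Trp53inp1 call held in 17 of 28 fits with a tumor left out and was not made by limma-voom. The Phlda3 call held in 4 of 28 and was not made by DESeq2. Of 8 mesothelial and tumor cell genes tested, Wt1, a transcription factor of mesothelium, rose by 1.70 ± 0.35 with at most 1.25 CPM in tumors without ICB, Krt19 rose by 2.89 with 48.9 CPM in its highest tumor and 1.39 without 5-FU+ICB tumor 5, a call that neither DESeq2 nor limma-voom made, and the adhesion gene Cdh2 fell by 0.76. The median of the 8 was 0.51, and without both libraries that stood apart 3 were called in each direction. As a check of the labelled mesothelioma, Msln, the mesothelin gene, had a mean of 181 CPM over the 28 tumors and Pdpn, the podoplanin gene, of 103 CPM, while Wt1 and Calb2 were below 1 CPM and Upk3b, Krt18, Lrrn4 and Muc16 were not tested because of low counts.

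The change with ICB had the same direction on all 3 backgrounds for nearly all genes called. This was so for 3039 of 3080 genes called higher (98.7%) and 1190 of 1202 called lower (99.0%), against 57.1% of all genes tested. The main effect averages the backgrounds, so part of this share is built in. The sizes differed. The genes called higher had a median log2 fold change of 1.73 without chemotherapy, 0.85 with 5-FU and 0.95 with cisplatin, and those called lower had medians of -1.05, -0.61 and -0.53.

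On single backgrounds, ICB without chemotherapy changed 5183 genes (28%), 2875 higher and 2308 lower. With cisplatin it changed 27 (0.146%), 25 higher and 2 lower. With 5-FU no gene passed edgeR's quasi-likelihood test (0%), the smallest adjusted p was 0.0559, and 2595 genes had an unadjusted p under 0.05. DESeq2's Wald test called 309 genes there and limma-voom with sample weights 4917. The edgeR count rested on single libraries. It was 1325 without 5-FU+ICB tumor 2 and 476 without 5-FU tumor 3. With cisplatin the adjusted p-values lay close to the threshold (the smallest was 0.0441), and the count was 0 when any of 21 of the 28 tumors was left out, whatever its group. Of the other 7 tumors, those that moved it most were Cisplatin+ICB tumor 1 (2298 without it), Cisplatin+ICB tumor 3 (226), 5-FU+ICB tumor 2 (53) and 5-FU tumor 3 (41).

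The backgrounds hold different tumors, so the genes called on the no-chemotherapy background could be read on the others. Of the 2875 called higher there, 94.5% were higher with 5-FU and 98.0% with cisplatin, against 50.6% and 55.9% of all genes tested. Of the 2308 called lower, 91.8% were lower with 5-FU and 79.7% with cisplatin, against 49.4% and 44.1%. All 27 genes called with cisplatin had the same direction on the other backgrounds. They included Gzmb, Ifng, Cd274, Irf1, Nos2, Acod1, Cxcl11, Tgtp1, Gbp2, Gbp4, Gbp6, Ccl3 and Il15ra, all higher, and Mxra8 and Pcdhb10 were lower. Across the 18521 genes, Pearson's r of the log2 fold changes was 0.602 between no chemotherapy and 5-FU, 0.651 between no chemotherapy and cisplatin and 0.532 between 5-FU and cisplatin. Genes are not independent replicates, and these values describe the likeness without a test.

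**Figure D3:**
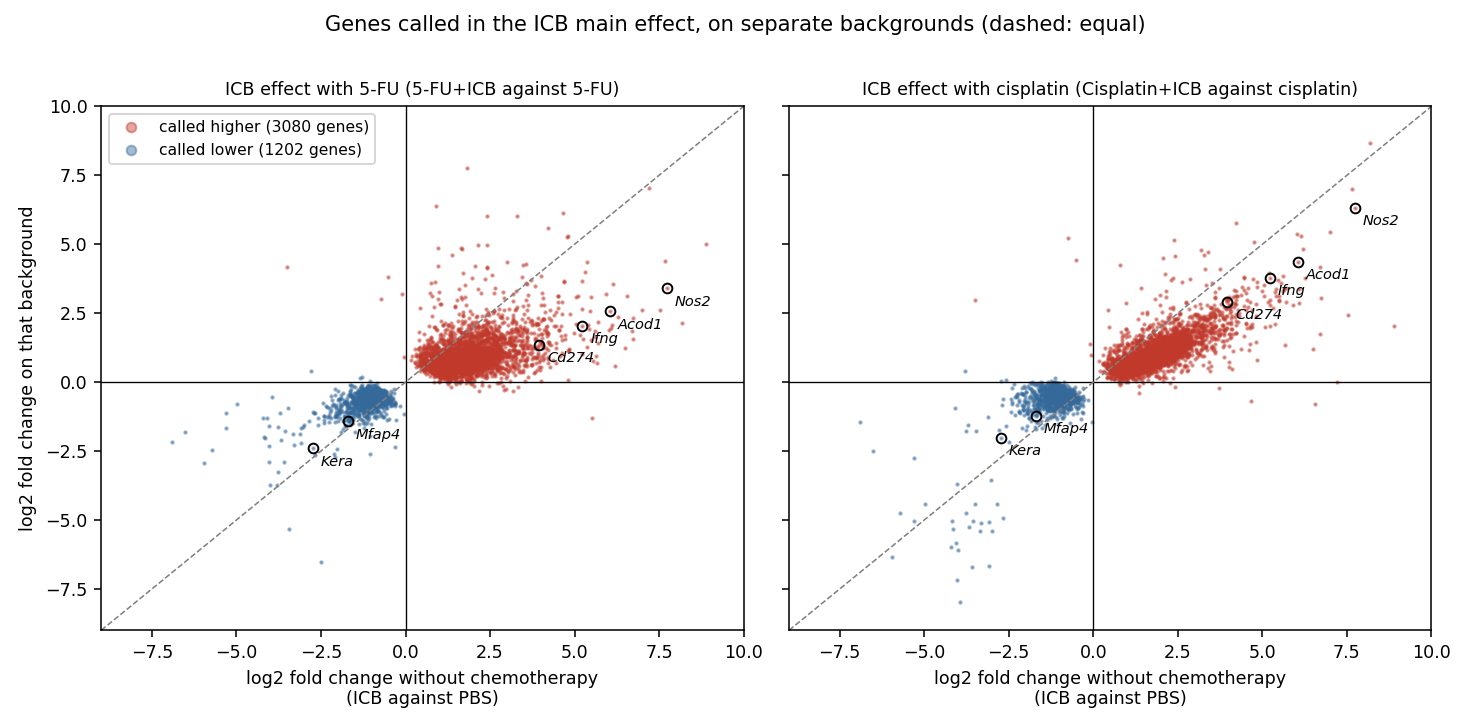
Log2 fold change with ICB on the 5-FU background (left) and the cisplatin background (right) against that without chemotherapy, for the 4282 genes called in the main effect. Red points were called higher and blue points lower. Most points lie in the quadrants of equal sign and, for the genes called higher, below the dashed line of equal change, with medians of 0.85 and 0.95 against 1.73.

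Whether the ICB effect itself differed with chemotherapy was tested as an interaction. No gene passed edgeR's quasi-likelihood test for 5-FU (0%, smallest adjusted p = 0.337) or for cisplatin (0%, smallest adjusted p = 0.513). At an unadjusted p under 0.05 there were 2058 and 1696 genes. DESeq2 called 72 and 2, and limma-voom called 1 for cisplatin. Without Cisplatin+ICB tumor 1, edgeR called 1063 genes for 5-FU and none for cisplatin. A p-value that misses the threshold does not show that the effect was the same on each background. Without the 9 tumors given no chemotherapy, the main effect had 407 calls, 347 higher and 60 lower. The calls of Gzmb, Ifng, Cd8a, Cd274, Irf1, Nos2, Acod1, Cxcl11, Mfap4 and Mxra8 held there. Those of Ptprc, Cd68, Mertk, C1qc, H2-DMa, H2-DMb1, Il1a, Tnf, Mmp8, Clec9a, Ccna2, Hmgcs1 and Sqle were lost, with the direction kept. This fit had fewer tumors, and the cause of the losses was not tested.

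Arhgef19, a guanine nucleotide exchange factor (chr4:141239499-141257564, plus strand), was the only gene of 18521 (0.0054%) whose 15 tumors with ICB did not overlap the 13 without. It ranged from 0.947 to 2.88 CPM with ICB (median 1.75) and from 3.02 to 5.56 CPM without (median 3.69). This was a log2 fold change of -1.11 ± 0.17 (adjusted p = 7.94e-05). On each background taken alone, 23 genes (0.124%) had no overlap in 1 direction. The 6 higher ones were Acod1, Cxcl11, Zbp1, Ltb4r1, Tnfrsf11b and the predicted gene Gm12250. Ltb4r1, the leukotriene B4 receptor of myeloid and T cells, rose by 1.69 ± 0.24, and Tnfrsf11b, the decoy receptor osteoprotegerin, by 1.55 ± 0.22. These and the genes of the next paragraph were named after their values were seen.

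The 17 lower ones were Arhgef19, Efna2, Galnt11, Gm12522, Kera, Kifap3, Lgr4, Mfap2, Mfap4, Mmp11, Mrgprf, Mxra8, Pcdhb10, Pcdhb14, Tgfb3, Tmem119 and Wnt9a, of which Galnt11 and Kifap3 changed too little to be called. Mxra8, a membrane protein of mesenchymal cells, ranged from 36.7 to 90.6 CPM with ICB (median 66.5) and from 87.3 to 161 CPM without (median 122). It fell by 0.92 (SE 0.12, adjusted p = 3.67e-05), by like amounts on each background (0.90, 0.78 and 1.09). Mfap2, a microfibril protein gene, and Tmem119, a gene of osteoblasts and microglia, were below every tumor without ICB in 14 of 15, with log2 fold changes of -0.99 and -1.12. Tgfb3, a TGF-beta ligand, fell by 0.77 and the Wnt ligand gene Wnt9a by 1.39.

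Since Ptprc moved with ICB, the main effect was also fitted with log2 Ptprc as a covariate, an alternative added after the data were seen. Ptprc rose with ICB itself, so this fit also takes out any part of the ICB effect that moves with leukocyte RNA. It called 31 genes in place of 4282. The genes that had been called higher went from a median log2 fold change of 1.17 to 0.13, with 64.2% keeping their sign, and those called lower from -0.70 to -0.12, with 71.1% keeping it. Cd8a went from 3.37 to 0.55 and Zap70 from 2.03 to 0.16, and neither was called. Other genes kept most of their size without being called, among them Gzmg (3.34), Gzmf (2.83), Hsd11b2 (-3.70) and Kera (-2.26).

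Of the 31 genes called with the covariate, 26 were also called higher and 2 called lower in the main effect. Nos2 stood at 3.67, Acod1 at 2.42, Ifng at 1.80, Cd274 at 1.53, Gzmb at 1.39 and Irf1 at 1.04, all called, as were Cxcl11, Ido1, Ido2, Tgtp1, Gbp4, Gbp6, Ifi47 and Ltb4r1. The genes called lower with the covariate and without it were Mfap2 and Mxra8. The part of leukocyte content in the other calls was not separated from that of ICB by this fit.

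**Figure D4:**
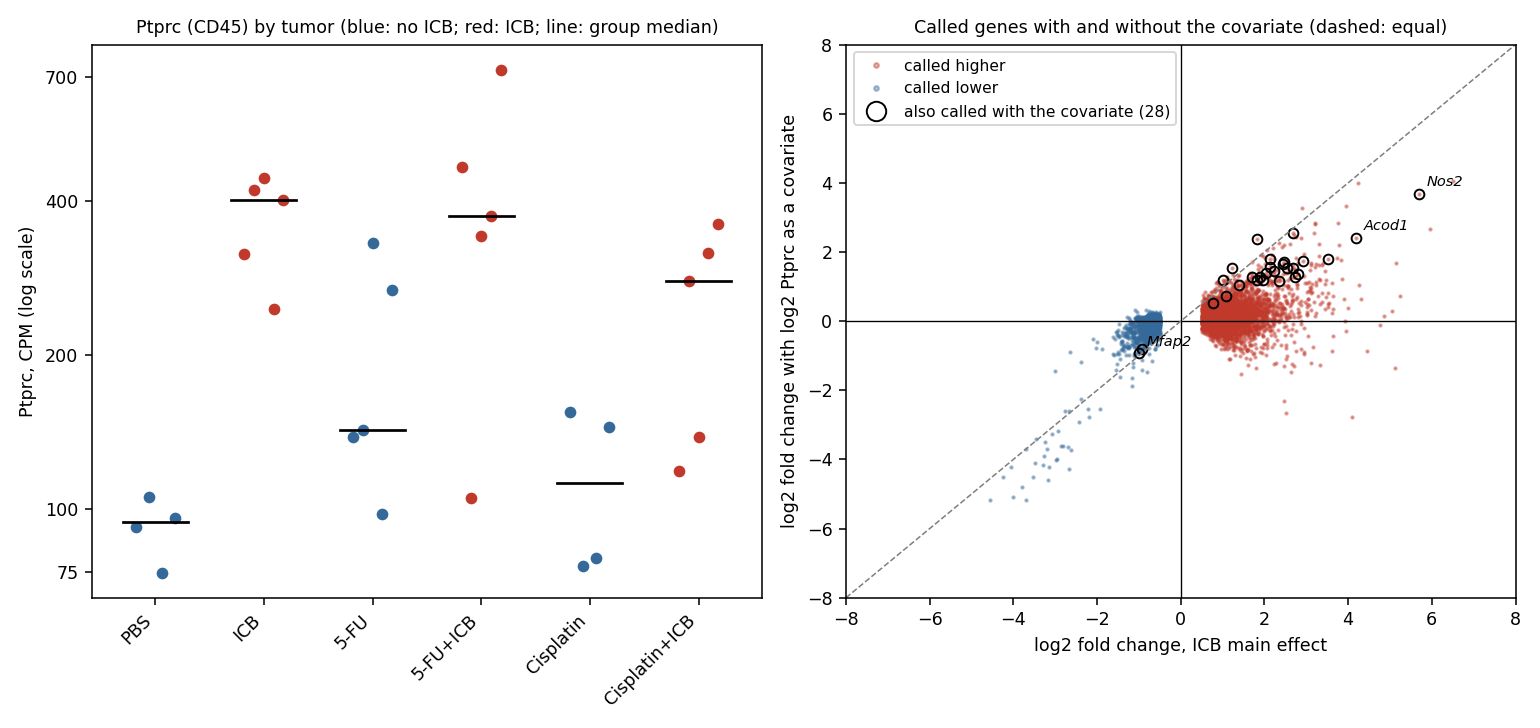
Left, Ptprc in each tumor as CPM on a log scale, with tumors without ICB in blue, tumors with ICB in red and the group median as a line. Right, log2 fold change of the 4282 called genes in the main effect (horizontal) and with log2 Ptprc as a covariate (vertical), where circles mark the 28 genes called in both fits. Most points drop from the dashed line of equal change toward 0, while some genes, Nos2 and Acod1 among them, stay above 2.

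Tissue around the tumor was followed through marker lists. Summed skeletal muscle markers ranged from 3.17 to 7036 CPM with ICB (median 419) and from 13.1 to 2120 CPM without (median 218). None of 12 was called by edgeR's quasi-likelihood test, 3 had an unadjusted p under 0.05, and DESeq2 called 2 higher and limma-voom none. Adipocyte markers ranged from 17.6 to 951 CPM with ICB (median 158) and from 42.3 to 709 CPM without (median 116), and erythroid markers had medians of 47.7 and 44.0 CPM. None of the 8 and 5 tested was called by edgeR or DESeq2 or had an unadjusted p under 0.05, and limma-voom called 1 erythroid gene higher. The muscle markers had a median log2 fold change of 1.39, with 11 of 12 higher with ICB on all 3 backgrounds. With the summed muscle genes as a covariate, 4943 genes were called in the main effect.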

How the data were processed

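RNA from 28 whole AB1-HA tumors was sequenced as 100-base single reads. The authors demultiplexed the reads (bcl2fastq 2.20.0.422), assigned them to GRCm38/mm10 transcripts with kallisto 0.46.0, compiled them with tximport and deposited estimated counts, not normalized, in 2 matrices that share 9 tumors with identical values. The matrices were joined by symbol, which took no column from outside the series. Of all values, 23.7% were not whole and were rounded before the tests. Of the 18521 genes tested, 18499 were found in GENCODE M21, and 22 had names turned into dates. Transcripts with low counts were removed per the study's methods, although 18393 genes were 0 in every tumor.

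In R 4.3.3, genes were filtered with filterByExpr by the 6 groups, scaled by TMM and fitted with edgeR 4.0.16 (glmQLFit, glmQLFTest) with chemotherapy and ICB as additive terms. Backgrounds and interactions came from a model of the 6 group means, which share one estimate of the spread. Standard errors were derived from the F statistic. P-values were adjusted over all genes tested by the Benjamini-Hochberg method, and the thresholds (0.05 and a log2 fold change of 0.5) are those of the study's methods. Labels name each tumor as a separate sample of its group, and the closest pair of tumors differed by 0.526 (root mean square of log2 CPM), so none was counted as a duplicate.

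The members and gene lists were chosen with earlier results of these data known. Named genes were the 10 with the largest change in each direction (mean of at least 1 CPM, same sign on all backgrounds, no predicted genes, pseudogenes or receptor segments), the 3 of each list with the smallest p, the antibody targets and their partners, and Ptprc. 1 gene named by this rule is not reported here. Others are marked or belong to a list, a count of calls or a result named in full. Alternatives were DESeq2 1.42.0, limma 3.58.1 (voom with sample weights), other scaling, filters and thresholds, a replicate block, no covariate, equal weights of the backgrounds, each background or tumor left out and, added after the data were seen, both libraries that stood apart left out, a Ptprc covariate and a muscle covariate. Promoter windows came from RefSeq (GRCm38.p6).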

Additional observations from a re-analysis of the deposited data

Results flagged for a closer look

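Within each group of 4 or 5 tumors, the levels of the 118 genes followed across the alternatives were searched for a tumor that lay far from the others, by Dixon's 95% criterion on log2 CPM. Of 708 such groups, 50 held one, and chance alone gives about 1 in 20. Values are CPM.

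5-FU+ICB tumor 2, with little Ptprc, was far below its group for Pdcd1lg2 (11.8), Ikzf4 (1.64), Klrk1 (16.4), Ctss (365), Ccl5 (21.1) and Batf3 (1.49) and above it for Col10a1 (3.35). Cisplatin+ICB tumor 3 was far below for Cd86 (13.3), Klrd1 (4.01), Ifi47 (128), Psmb8 (254) and Ltb4r1 (4.48). Both tumors lay on the side of the tumors without ICB. Cisplatin+ICB tumor 1 was far below for Il2ra (4.29), Foxp3 (0.424), Col3a1 (1600) and Trp53inp1 (27.4) and above for Cd80 (56.5) and Phlda3 (289). 5-FU+ICB tumor 5 was far above for Socs1 (62.3), Ifih1 (90.9), Ido1 (10.6), Robo4 (30.4) and Glycam1 (491) and below for Gzmf (0.400), Osr2 (5.90) and Thbs2 (58.8).

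The other tumors had 4 or fewer such values each. Among tumors with ICB, ICB tumor 2 was high for Ndrg1 (281) and Ltb4r1 (11.3), ICB tumor 3 for Krt34 (0.0789), 5-FU+ICB tumor 4 for Krt34 (0.217) and Cisplatin+ICB tumor 2 for Lox (94.9), while ICB tumor 4 was low for H2-DMa (169) and Cisplatin+ICB tumor 4 for Krt19 (0). Among tumors without ICB, PBS tumor 2 was high for Cd86 (20.0), Tapbpl (65.9), Chst4 (0.0339) and Ighg1 (2.31), PBS tumor 4 for Trp53inp1 (33.2), 5-FU tumor 3 for Csf2 (1.34) and Cisplatin tumor 1 for Krt34 (1.37). PBS tumor 1 was low for Ifng (0.203), Wt1 (0) and Tmem119 (109), PBS tumor 3 for Prf1 (8.06) and Ccl21a (0.217), 5-FU tumor 3 for Thbs2 (380) and Eda2r (28.9), 5-FU tumor 4 for Ido1 (0.214), Cisplatin tumor 1 for Emcn (3.62) and Cisplatin tumor 2 for Mfap2 (15.6). The Chst4 value of PBS tumor 2 and the Krt34 value of ICB tumor 3 were under 3 counts (0.102 and 0.118 CPM in these tumors). They and the values of 0 are within counting error.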

How the results depend on the processing

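The count of genes changed by ICB stayed within 1.5 times of 4282 under 12 other settings (3472 to 5802) and with any tumor left out (3733 to 6090). It was 2821 with at least 10 counts in every tumor, 7177 with limma-voom, 407 without the tumors given no chemotherapy and 31 with Ptprc as a covariate. Without chemotherapy the count was 7948 without both libraries that stood apart, and it ranged from 3079 to 7500 with a tumor left out, with 3079 without PBS tumor 1, 3273 without PBS tumor 2, 3158 without ICB tumor 2 and 3328 without ICB tumor 3. With 5-FU it was 309 with DESeq2 and 4917 with limma-voom, and 0 to 1325 with a tumor left out. With cisplatin it was 445 with DESeq2, 0 with no scaling, 15 with no filter, 6690 with limma-voom, 2286 without both libraries that stood apart, and 0 to 2298 with a tumor left out. The interaction with 5-FU had 72 calls with DESeq2 and 0 to 1063 with a tumor left out, and that with cisplatin 2 with DESeq2, 1 with limma-voom and 0 with any tumor left out. The causes were not tested.

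Replicate numbers did not pair the tumors. Of 13 same-numbered pairs, 4 had a correlation of deviations over 0.1, and 6 of 28 tumors correlated best with their own number. With the replicate number as a block the main effect had 3472 calls and the effect with cisplatin 0.

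The direction of a named gene turned over with Ptprc as a covariate only. The log2 fold change was then -0.35 for Ctla4, -0.13 for Cd28, -0.30 for Icos, -0.20 for Foxp3, -1.44 for Cd79b, -1.89 for Ms4a1, -0.11 for C1qc, -0.15 for Ly6c2, -0.19 for Csf3r, -0.30 for Ccr7, -0.16 for Pecam1, -0.072 for Robo4, -0.28 for Glycam1, -0.96 for Ccl21a, -0.073 for Krt19, 0.051 for Bub1, 0.050 for Aurkb, 0.037 for Rrm1, 0.084 for Rrm2, 0.020 for Mcm2, -0.037 for Pmaip1, -0.23 for Trp53inp1, 0.027 for Eda2r and 0.12 for Phlda3. Over all named genes and settings, 4826 values kept their direction and side of the threshold, 266 were no longer called, 44 became called and 24 turned over. Genes near 3 counts, such as hair keratins, are limited by depth.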
